A study of Mus musculus with 18 samples.

Results

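Transcripts of 8 genes of the mTOR complexes and their immediate partners (Mtor, Rptor, Rictor, Mlst8, Akt1s1, Deptor, Rps6kb1 and Rragc) were followed in mouse tumors. They were taken by symbol from a NanoString nCounter panel of metabolic pathways, where they made up 8 of 768 measured genes, by name and without a threshold on any value. The nCounter assay counts fluorescent barcodes bound to single RNA molecules without amplification. Tumors grew from TUBO, a HER2/neu-driven mammary carcinoma line of the mouse, injected into female BALB/c mice. The 18 tumors fell into 4 arms: HER2 DC1 dendritic cells given into the tumor together with an antibody blocking semaphorin 4D (the combination), HER2 DC1 alone, anti-Semaphorin4D alone, and an untreated control, with treatment lasting 3 weeks. Each arm had tumors titled treated and tumors titled untreated, with 3 samples in each of the 2 combination groups and 2 in each of the other 6. The labels do not say whether samples came from separate mice, whether a treated and an untreated tumor of 1 number shared a mouse, or which tumor of a control mouse was titled treated, so p-values measure only the spread between these samples.

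The mTOR kinase works in a pair of protein complexes. In complex 1 it is joined by raptor (Rptor), which recruits substrates, and by the inhibitor PRAS40 (Akt1s1), and it drives protein, lipid and nucleotide synthesis through substrates such as the S6 kinase (Rps6kb1) when the RAG GTPases (Rragc among them) bring it to the lysosome in amino acid-replete cells. In complex 2 rictor (Rictor) takes the place of raptor and AKT is a main substrate, while mLST8 (Mlst8) and the inhibitor DEPTOR (Deptor) belong to both complexes. HER2 signals to mTOR through PI3K and AKT in breast cancer cells, and mTOR also governs growth and effector programs in T cells and myeloid cells. The assay read RNA and not protein or phosphorylation.

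Values below are the deposited log2(count + 1), 1 probe per gene, so levels are compared between samples and not between genes. Panel counts before scaling were between 203509 (replicate 2 of the untreated-tumor control) and 989307, and the next lowest library was untreated-tumor DC1 replicate 1 with 238079. All 8 genes exceeded the negative-probe limit in all 18 samples, as did 462 panel genes in all. The lowest readings were 23 counts for Deptor and 24 for Mlst8, both in untreated-tumor DC1 replicate 1, and 29 for Mtor in untreated-tumor control replicate 2, where counting error alone gives an SD of 0.268 on the log2 scale. Samples of 6 columns held whole numbers whose scaling is not settled, and the other 12, including all 6 combination samples, had been scaled by 1 factor per sample. Markers of tumor epithelium were not among the panel genes of the list used, so the tumor cell share could not be checked.

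The sequences before the start sites of the kinase gene and of Rptor and Rragc are shown because these genes moved in different ways: Mtor higher in both kinds of tumor, Rptor lower on average, and Rragc higher in treated tumors. RefSeq promoter windows (GRCm38.p6) were available for 7 of the 8 genes, all but Deptor. The 250 bases before each start site are given 5′ to 3′ on the gene's strand, here the plus strand for all 3, at chr4:148448332-148448581, chr11:119602655-119602904 and chr4:123917183-123917432. Capitals mark matches on either strand to any of 5 motifs searched: an E-box (CACGTG), a GAS-like element (TTCNNNGAA), an AP-1-like element (TGANTCA), an ISRE-like element (after the interferon-stimulated response element, GAAA, any 2 bases, GAAA) and an ETS-like element (CCGGAAGT).
Mtor: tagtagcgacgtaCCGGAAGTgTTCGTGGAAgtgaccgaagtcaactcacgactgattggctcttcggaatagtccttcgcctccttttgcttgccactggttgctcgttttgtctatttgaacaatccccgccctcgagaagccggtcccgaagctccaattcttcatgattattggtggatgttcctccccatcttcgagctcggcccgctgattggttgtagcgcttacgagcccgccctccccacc
Rptor: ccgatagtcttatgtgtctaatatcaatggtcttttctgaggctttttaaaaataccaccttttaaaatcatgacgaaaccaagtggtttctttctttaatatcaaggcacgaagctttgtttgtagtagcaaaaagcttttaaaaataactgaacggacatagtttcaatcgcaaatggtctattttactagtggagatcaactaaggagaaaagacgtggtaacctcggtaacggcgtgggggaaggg
Rragc: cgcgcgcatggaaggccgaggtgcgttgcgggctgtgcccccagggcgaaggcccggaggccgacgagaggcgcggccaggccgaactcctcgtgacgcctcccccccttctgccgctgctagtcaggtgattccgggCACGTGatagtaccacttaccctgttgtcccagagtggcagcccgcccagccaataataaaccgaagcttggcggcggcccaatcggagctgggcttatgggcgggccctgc
The Mtor window held an ETS-like match at -237 to -230 and a GAS-like match at -228 to -220 from the start site, not overlapping each other, and the Rragc window an E-box at -112 to -107. The Akt1s1 window, whose start site lies inside the annotated gene, held an ETS-like match at -49 to -42. The windows of Rptor, Rictor, Mlst8 and Rps6kb1 held none of these letters. Of 32851 windows of this length, 2.88% held the ETS-like, 7.02% the GAS-like, 6.02% the E-box, 6.75% the AP-1-like and 2.98% the ISRE-like letters. The Rptor window had 37.6% G or C, Mtor 54.4% and Rragc 68.0%, with a median of 52.4% over all windows. These matches describe letters and not binding, which was not measured.

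The kinase gene itself moved most among the 8. Mtor (chr4:148448582-148557685, GRCm38.p6) read 8.10, 8.68 and 8.12 in the 3 treated tumors of the combination, 7.41 and 7.52 under DC1, 6.25 and 6.66 under anti-Semaphorin4D, and 6.82 and 6.71 in control. In untreated tumors it read 7.63, 8.36 and 8.09 under the combination, 6.93 and 7.31 under DC1, 6.30 and 6.79 under anti-Semaphorin4D, and 6.71 and 6.25 in control. Every combination sample lay above every other sample of either kind of tumor, as for 3.91% of panel genes. Every sample of the DC1 arm lay above every sample of the arms without DC1. All samples of the arms with DC1 thus lay above those of the arms without it, as for 8.46% of panel genes. Anti-Semaphorin4D samples lay below control in treated tumors, as for 16.7% of panel genes, and overlapped it in untreated tumors.

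**Figure D1:**
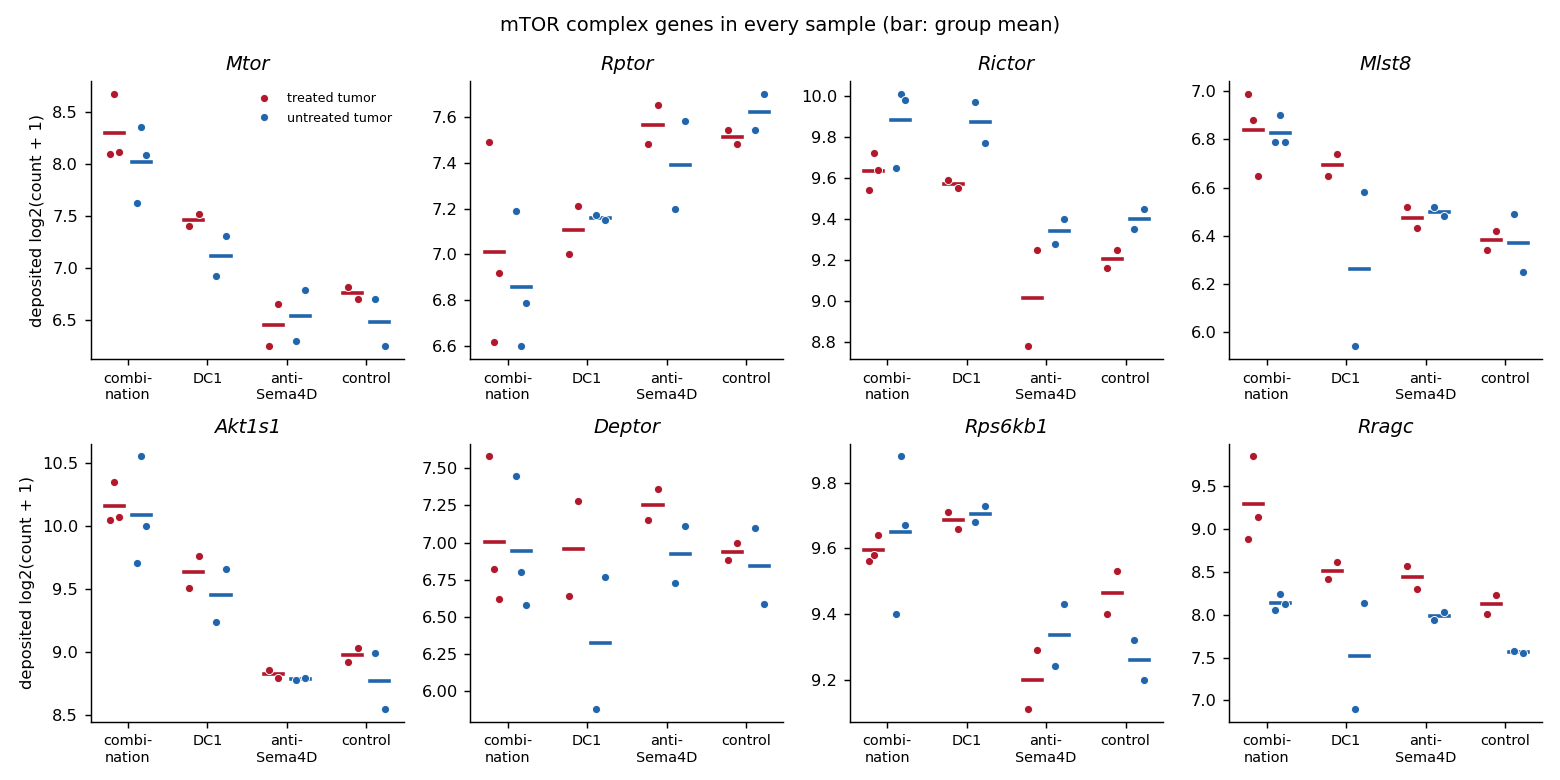
Deposited log2(count + 1) values of the 8 genes (y axes, a separate range for each gene) by arm (x axes), with treated tumors in red and untreated tumors in blue. Points are samples and bars are group means. Mtor and Akt1s1 step down through combination, DC1 and the arms without DC1, Rptor is lowest under the combination, and Deptor shows no such order.

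Against control, Mtor rose 2.89-fold in treated tumors, with a mean of 8.30 ± 0.33 (SD, n = 3) under the combination and 6.77 ± 0.08 (n = 2) in control (log2 change 1.53, SE 0.28, limma adjusted p = 0.00207). In untreated tumors it rose 2.92-fold, with 8.03 ± 0.37 (n = 3) under the combination and 6.48 ± 0.33 (n = 2) in control (log2 change 1.55, SE 0.28, limma adjusted p = 0.00819). The treated-tumor minus the untreated-tumor change was -0.01 (95% interval -0.86 to 0.83). For the treated-tumor change, the adjusted p was at most 0.0275 when any 1 sample was left out. The untreated-tumor call ended without control replicate 2 (log2 change 1.31, adjusted p = 0.128) and in a fit of the 2 groups alone (adjusted p = 0.0658). In whole tumors, a change in the share of a cell type and a change in RNA per cell cannot be told apart.

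Mtor's rise stands against a panel that moved broadly. In treated tumors 35.4% of panel genes rose and 3.39% fell under the combination, and in untreated tumors 15.8% rose and 1.04% fell. The median panel gene changed by 0.54 in treated and by 0.45 in untreated tumors, and the 8 genes had medians of 0.44 and 0.47. Of the 8, 3 rose and 0 fell in treated tumors (37.5% higher, where 38.8% of the panel passed in either direction), and 2 rose and 0 fell in untreated tumors (25% higher, with 16.8% of the panel in either direction). The treated-tumor share was close to that of the panel. At an unadjusted p under 0.05 the counts in either direction were 5 of 8 and 6 of 8, beside 366 and 291 of 768. Mtor stood at rank 130 of 768 from the top in treated tumors.

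Among the complex 1 subunits, Akt1s1 rose and Rptor, averaged over both kinds of tumor, fell. Akt1s1 (chr7:44849224-44855421), whose product PRAS40 restrains complex 1 until AKT phosphorylates it, read 10.05, 10.35 and 10.07 in treated tumors of the combination, 9.51 and 9.76 under DC1, 8.86 and 8.80 under anti-Semaphorin4D, and 8.92 and 9.03 in control. Untreated tumors read 9.71, 10.55 and 10 under the combination, 9.24 and 9.66 under DC1, 8.78 and 8.80 under anti-Semaphorin4D, and 8.99 and 8.55 in control. All 10 samples of the arms with DC1 lay above all 8 samples without it, as for 8.46% of panel genes. Akt1s1 rose 2.27-fold in treated tumors (log2 change 1.18, SE 0.25, limma adjusted p = 0.00408) and 2.48-fold in untreated tumors (1.31, SE 0.25, limma adjusted p = 0.00819) against control. The untreated-tumor call ended without control replicate 2 (1.09, adjusted p = 0.129) and in the fit of the 2 groups alone (adjusted p = 0.0703), and the treated-tumor call ended when each sample was centred on the panel median (0.48, adjusted p = 0.0792).

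Rptor (chr11:119602905-119899591), the scaffold that presents substrates to complex 1, read 7.49, 6.62 and 6.92 in treated tumors of the combination, 7.0 and 7.21 under DC1, 7.48 and 7.65 under anti-Semaphorin4D, and 7.54 and 7.48 in control. In untreated tumors it read 7.19, 6.60 and 6.79 under the combination, 7.17 and 7.15 under DC1, 7.20 and 7.58 under anti-Semaphorin4D, and 7.54 and 7.70 in control. Replicate 1 of the treated-tumor combination lay among the controls, and the other combination samples lay below every control sample of either kind. In untreated tumors 7.81% of panel genes lay wholly lower under the combination than in control. In single kinds of tumor the difference from control did not pass the test (log2 change -0.50, SE 0.25, limma adjusted p = 0.135 in treated tumors; -0.76, SE 0.25, adjusted p = 0.0539 in untreated tumors). Without combination replicate 1 of the treated tumors it passed there (-0.74, adjusted p = 0.022), and without untreated-tumor combination replicate 1 in untreated tumors (-0.92, 0.0308). Leaving out treated-tumor combination replicate 2 weakened it instead in treated tumors (-0.30, adjusted p = 0.402). Leaving out untreated-tumor control replicate 2 did so in untreated tumors (adjusted p = 0.298). It passed in both kinds after centring on the panel median (-1.20, adjusted p = 0.0145; -1.23, adjusted p = 0.0431) and on housekeeping genes (-0.75, adjusted p = 0.0439; -1.0, adjusted p = 0.0395). Averaged over both kinds, Rptor fell under the combination by 0.63 on the log2 scale (SE 0.18, limma adjusted p = 0.0115), where 4.04% of panel genes fell.

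Rictor (chr15:6708349-6800401), which defines complex 2, read 9.54, 9.72 and 9.64 in treated tumors of the combination, 9.59 and 9.55 under DC1, 8.78 and 9.25 under anti-Semaphorin4D, and 9.16 and 9.25 in control. Untreated-tumor values were 9.65, 10.01 and 9.98 under the combination, 9.97 and 9.77 under DC1, 9.28 and 9.40 under anti-Semaphorin4D, and 9.35 and 9.45 in control. Samples of the arms with DC1 lay at 9.54 or higher and those of the arms without it at 9.45 or lower. This separation was shared by 8.46% of panel genes. Combination and DC1 were close to each other. The combination differed from control by 0.43 (SE 0.19, limma adjusted p = 0.0865) in treated and 0.48 (SE 0.19, adjusted p = 0.0862) in untreated tumors, which did not pass.

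Mlst8 and Deptor belong to both complexes. Mlst8 (chr17:24473550-24479114), which steadies the kinase domain, read 6.99, 6.88 and 6.65 in treated and 6.79, 6.90 and 6.79 in untreated tumors of the combination, against 6.34 and 6.42 in treated and 6.49 and 6.25 in untreated tumors of the control. The groups did not overlap within either kind of tumor, as for 55.6% of panel genes that lay wholly higher in treated and 47.9% in untreated tumors. The log2 change of 0.46 in each did not pass (limma adjusted p = 0.0838 and 0.114). DC1 samples read 6.65 and 6.74 in treated and 5.94 and 6.58 in untreated tumors, and anti-Semaphorin4D samples 6.52 and 6.43 in treated and 6.52 and 6.48 in untreated tumors.

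Deptor (chr15:55112317-55259273), an inhibitor of the kinase, read 7.58, 6.82 and 6.62 in treated and 7.45, 6.80 and 6.58 in untreated tumors of the combination, against 6.88 and 7.0 in treated and 7.10 and 6.59 in untreated tumors of the control. DC1 samples read 6.64 and 7.28 in treated and 5.88 and 6.77 in untreated tumors, and anti-Semaphorin4D samples 7.15 and 7.36 in treated and 6.73 and 7.11 in untreated tumors. The combination and control overlapped in both kinds of tumor, and the log2 changes were 0.07 (95% interval -0.71 to 0.85) and 0.10 (-0.68 to 0.88). It had the widest spread within groups of the 8 (residual SD 0.42, where the median of the 462 always-detected genes was 0.28), and 35.7% of its variance lay between groups, against 91.1% for Mtor and a median of 71.3%. The intervals above give the range of Deptor changes that these samples allow, and no smallest detectable change was worked out.

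Of the genes up- and downstream, Rragc read higher in treated than in untreated tumors. Rragc (chr4:123917433-123936997), a RAG GTPase of amino acid sensing at the lysosome, read 8.88, 9.84 and 9.13 in treated tumors of the combination, 8.41 and 8.61 under DC1, 8.57 and 8.30 under anti-Semaphorin4D, and 8.01 and 8.23 in control. Its untreated-tumor values were 8.05, 8.24 and 8.12 under the combination, 6.90 and 8.14 under DC1, 7.94 and 8.03 under anti-Semaphorin4D, and 7.58 and 7.55 in control. Within every arm, each treated tumor lay above every untreated tumor, as did 25.1% of panel genes in the combination, 33.5% in DC1, 30.2% in anti-Semaphorin4D and 32.2% in control. Rragc rose 2.24-fold in treated tumors of the combination against control (log2 change 1.17, SE 0.33, limma adjusted p = 0.014), a call that ended without control replicate 1 (adjusted p = 0.106), without control replicate 2 (0.0584), without combination replicate 2 (0.055), with panel-median centring (0.46, adjusted p = 0.192) and in the fit of the 2 groups alone (0.0593). In untreated tumors the change was 0.57 (SE 0.33, adjusted p = 0.212), and the difference between the 2 changes was 0.59 (95% interval -0.41 to 1.59, adjusted p = 0.589).

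Rps6kb1 (chr11:86498869-86544885), which encodes a kinase that complex 1 phosphorylates directly, read 9.56, 9.58 and 9.64 in treated and 9.40, 9.88 and 9.67 in untreated tumors of the combination, against 9.40 and 9.53 in treated and 9.32 and 9.20 in untreated tumors of the control. DC1 samples read 9.71 and 9.66 in treated and 9.68 and 9.73 in untreated tumors, and anti-Semaphorin4D samples 9.11 and 9.29 in treated and 9.24 and 9.43 in untreated tumors. The combination lay above control without overlap in both kinds, as did 55.6% of panel genes in treated and 47.9% in untreated tumors. The log2 changes of the combination against control, 0.13 (SE 0.17, limma adjusted p = 0.579) in treated and 0.40 (SE 0.17, adjusted p = 0.115) in untreated tumors, did not pass and were below the panel medians of 0.54 and 0.45. Its residual SD of 0.13 was the lowest of the 8.

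**Figure D2:**
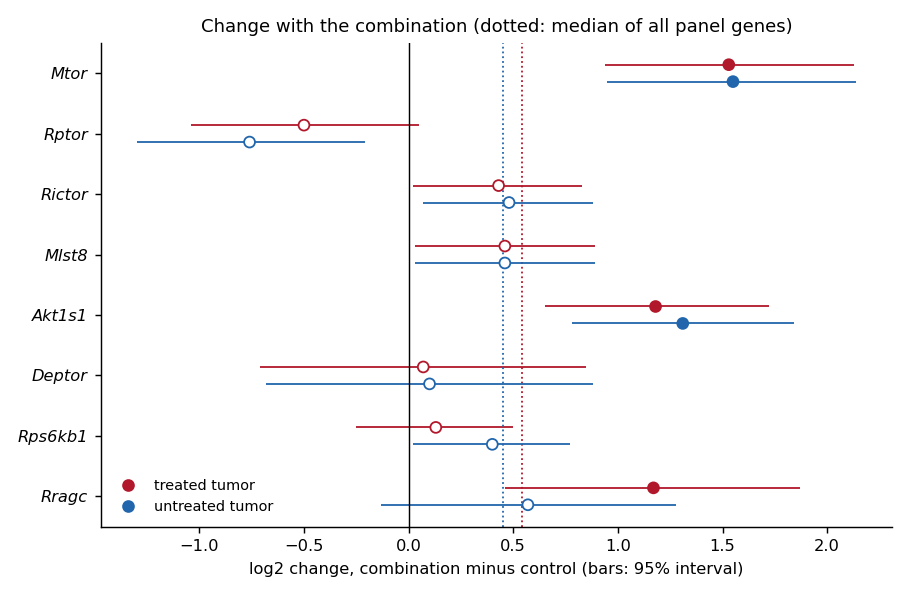
Log2 change of the combination minus control (x axis) for each gene (y axis), treated tumors in red above untreated tumors in blue, with 95% intervals from limma. Filled points have an adjusted p under 0.05 and dotted lines are the medians of 768 panel genes (0.54 treated, 0.45 untreated). Mtor and Akt1s1 are filled in both kinds of tumor and Rragc in treated tumors, and Rptor is the one gene with both points below 0.

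Averaging over both kinds of tumor, Mtor rose by 1.54 (SE 0.19, limma adjusted p = 0.000142), Akt1s1 by 1.25 (SE 0.17, 0.000293), Rragc by 0.87 (SE 0.23, 0.00831), Mlst8 by 0.46 (SE 0.14, 0.0165) and Rictor by 0.45 (SE 0.13, 0.0132). Rps6kb1 (0.26, adjusted p = 0.0923) and Deptor (0.08, 0.803) did not pass. That made 5 higher and 1 lower of 8, where 44.1% of the panel was higher and 4.04% lower. The direction of several of these changes depended on the scaling, since the median over the panel in a sample was on average 0.59 higher under the combination and the mean of 19 housekeeping genes 0.25 higher. With each sample centred on its panel median, Mtor (0.95, adjusted p = 0.000734) and Akt1s1 (0.66, 0.00377) stayed higher and Rptor (-1.22, 0.00211) lower. Rictor and Mlst8 turned to -0.14 and -0.13 without passing, Rps6kb1 turned to -0.33 (adjusted p = 0.0441), and Rragc at 0.28 no longer passed (adjusted p = 0.257). Centred on housekeeping genes, Mtor, Akt1s1 and Rragc passed as higher (1.29, 1.00 and 0.62) and Rptor as lower (-0.87), while Rictor and Mlst8 (0.21 each) did not pass. The Mlst8 call also ended without untreated-tumor control replicate 2 (adjusted p = 0.0704) and without treated-tumor control replicate 1 (0.0587). With the treated and untreated tumor of an arm and number averaged first, as if from 1 mouse (9 averages, an alternative chosen after seeing the data), Mtor (adjusted p = 0.00712), Akt1s1 (0.00819) and Rragc (0.0313) passed, and Rptor (0.0648), Mlst8 (0.072) and Rictor (0.0765) did not.

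**Figure D3:**
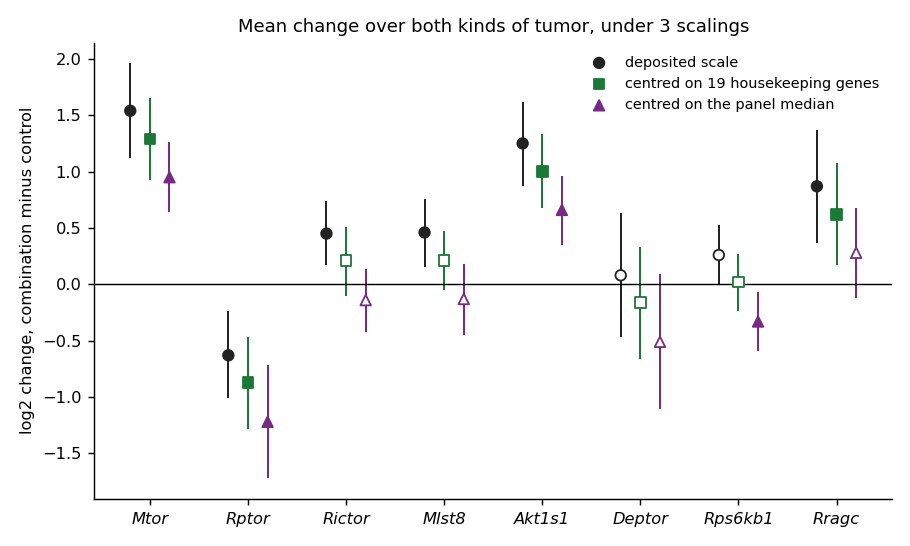
Mean log2 change over both kinds of tumor, combination minus control (y axis), for each gene (x axis) on the deposited scale (black circles), centred on 19 housekeeping genes (green squares) and centred on the panel median (purple triangles). Bars are 95% intervals from limma and filled symbols have an adjusted p under 0.05. Mtor and Akt1s1 lie above 0 and Rptor below 0 in all 3, while Rictor, Mlst8, Rps6kb1 and Deptor change sign between scalings.

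The kind of column was set beside these changes because the controls were split evenly between scaled and whole-number columns. With it as a block, Mtor changed by 1.70 (adjusted p = 0.00178) in treated and 1.71 (0.00333) in untreated tumors, and Akt1s1 by 1.27 (0.00386) and 1.39 (0.00754). Rragc changed by 1.26 (0.0139) in treated tumors, and Rptor by -0.44 (0.201) and -0.70 (0.0697). Within the 12 scaled columns, which leave 3 combination samples and 1 control in each kind of tumor, the differences were 1.59 and 1.78 for Mtor, 1.13 and 1.53 for Akt1s1 and -0.47 and -0.84 for Rptor. A limma fit of these columns alone, added after seeing the data, takes its spread from the combination samples and assumes that the lone samples vary like them. In it none of the 8 genes and 0 panel genes passed in treated tumors (adjusted p = 0.101 for Mtor and 0.117 for Akt1s1; 3 of the 8 and 239 panel genes at an unadjusted p under 0.05), and Mtor passed in untreated tumors (0.0452). Averaged over both kinds, Mtor (1.68, adjusted p = 0.0173) and Akt1s1 (1.33, 0.0222) passed there and Rptor (-0.65, 0.132) did not. No combination sample lies in a whole-number column, so no value could be had there.

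The design also asks what each agent did alone. DC1 against control called none of the 8 genes and 0% of the panel in either kind of tumor (limma, with 109 of 768 panel genes at an unadjusted p under 0.05 in treated and 70 in untreated tumors, and 2 and 3 of the 8). Mtor differed by 0.70 (95% interval 0.05 to 1.35) in treated and 0.64 (-0.01 to 1.29) in untreated tumors, Akt1s1 by 0.67 in both and Rptor by -0.40 and -0.46. Anti-Semaphorin4D against control likewise called none of the 8 and 0% of the panel (11 and 25 panel genes and 0 of the 8 at an unadjusted p under 0.05), with Mtor at -0.31 (-0.96 to 0.34) and 0.07 (-0.58 to 0.72). These intervals give the range of changes that 2 samples per group allow.

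Compared with anti-Semaphorin4D alone, the combination had higher Mtor (log2 change 1.84, SE 0.28, limma adjusted p = 0.00139) and Akt1s1 (1.32, adjusted p = 0.00283) in treated tumors, where 34.5% of the panel was higher, 2.34% lower and 36.8% either. Rictor passed there too (0.62, adjusted p = 0.0204) and turned to -0.11 when centred on the panel median. That call also ended with housekeeping centring (adjusted p = 0.144), in the fit of the 2 groups alone (0.136), without anti-Semaphorin4D replicate 1 (0.38, 0.23) and without combination replicate 2 (0.0549). In untreated tumors Mtor rose by 1.48 and Akt1s1 by 1.29 (both adjusted p = 0.0106), where 12.1% of the panel was higher and 0.391% lower. Both of these calls ended without anti-Semaphorin4D replicate 1 (both adjusted p = 0.204), without combination replicate 2 (both 0.052) and in the fit of the 2 groups alone (both 0.0608), and the Akt1s1 call without anti-Semaphorin4D replicate 2 (0.0537). Compared with DC1 alone, none of the 8 passed in treated tumors, where 1.82% of the panel did (1.69% higher), or in untreated tumors, where 0% did (limma; 2 and 3 of the 8 and 205 and 136 panel genes at an unadjusted p under 0.05). Mtor differed by 0.83 and 0.91 and Akt1s1 by 0.52 and 0.64 in these comparisons. The interaction of the agents, the combination's change beyond the sum of both single agents, passed for none of the 8 and 0% of the panel in either kind (69 and 53 panel genes at an unadjusted p under 0.05), with Mtor at 1.15 and 0.84. These comparisons share samples with those against control.

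The 10 samples of the arms with DC1, from tumors titled treated and untreated, looked separate from the 8 other samples for some genes. The arms with and without DC1 were therefore compared as a contrast chosen after the values were seen, which the same samples cannot check. Mtor (lowest 6.93 with DC1, highest 6.82 without), Rictor (9.54 and 9.45) and Akt1s1 (9.24 and 9.03) had no overlap and were higher with DC1. Over the panel 8.46% of genes separated in this direction and 0.26% in the other. Averaged over arms and kinds of tumor, Mtor was higher by 1.16 (SE 0.14, limma adjusted p = 0.000174), Akt1s1 by 0.99 (0.000182), Rictor by 0.50 (0.00156) and Rps6kb1 by 0.34 (0.00781), and the Rptor difference was -0.49 (0.00927), where 44.5% of the panel was higher and 2.08% lower. Centred on the panel median, Rictor (0.04) and Rps6kb1 (-0.12) did not pass, and centred on housekeeping genes Rps6kb1 (0.18) did not. With the tumors of an arm and number averaged first, Rptor (adjusted p = 0.057) and Rps6kb1 (0.0563) did not pass, and Mtor, Akt1s1 and Rictor did.

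Differences between genes of 1 sample do not depend on how that sample was scaled. Rptor minus Rictor, which sets the complex 1 scaffold against that of complex 2, averaged -2.63 ± 0.53 (SD, n = 3) in treated tumors of the combination, -2.47 ± 0.18 (n = 2) under DC1, -1.45 ± 0.22 under anti-Semaphorin4D and -1.70 ± 0.11 in control. In untreated tumors it averaged -3.02 ± 0.50, -2.71 ± 0.12 and -1.95 ± 0.19 in those treated arms and -1.78 ± 0.04 in control. All 6 combination samples (-3.41 to -2.05) lay below all 4 controls (-1.81 to -1.63). The share of panel gene pairs that separate in this way was not computed. The combination minus control difference was -1.08 (exact two-sided permutation within kinds of tumor, p = 0.02, adjusted over 3 such differences 0.02, smallest p possible 0.01). Without treated-tumor control replicate 1 or 2 the adjusted p was 0.05. The permutations take the tumors as independent, which the labels do not settle.

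Mtor also rose relative to both shared subunits. Mtor minus Mlst8 was 1.46 ± 0.34 (SD, n = 3) in treated and 1.20 ± 0.32 in untreated tumors of the combination, against 0.38 ± 0.14 (n = 2) and 0.11 ± 0.16 in control, a difference of 1.08 (exact permutation p = 0.01, the smallest possible, adjusted 0.02). Mtor minus Deptor was 1.29 ± 0.69 and 1.08 ± 0.78 under the combination, against -0.17 ± 0.16 and -0.37 ± 0.03 in control, a difference of 1.46 (exact permutation p = 0.02, adjusted 0.02). Combination and control did not overlap in either measure, and without treated-tumor control replicate 2 the adjusted p of each was 0.05. These differences, like that of Rptor minus Rictor, follow from the averaged changes of the single genes given above. Here too the share of panel gene pairs that separate was not computed, so the separation is not shown to be particular to these pairs. Under DC1 alone the means were also above control, at 0.77 and 0.86 for Mtor minus Mlst8 and 0.51 and 0.80 for Mtor minus Deptor in treated and untreated tumors.

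**Figure D4:**
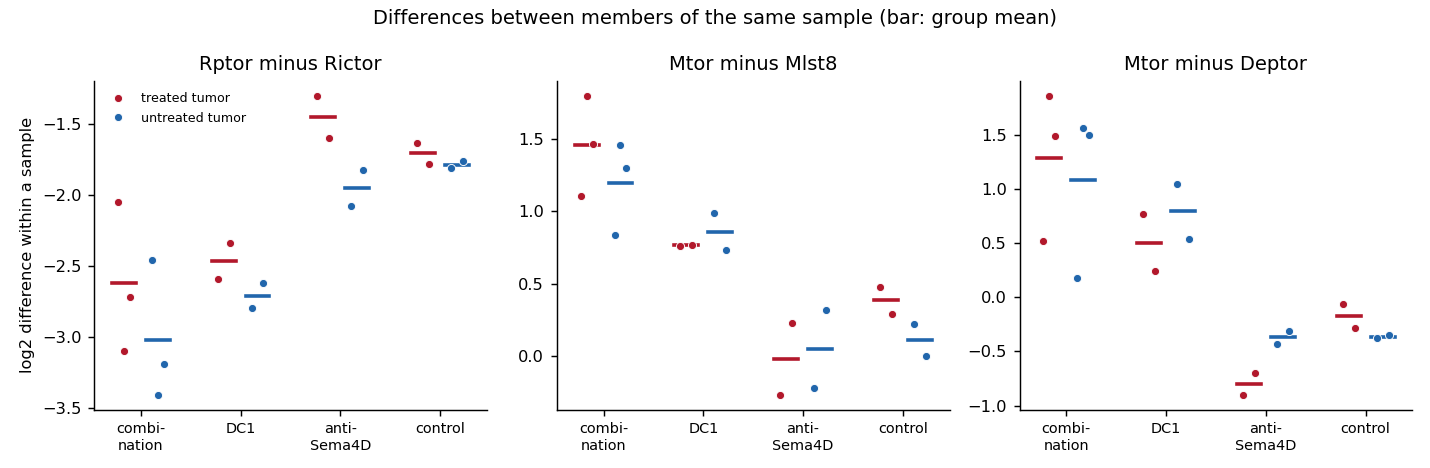
Differences between log2 values of 2 genes within a sample (y axes) by arm (x axes), treated tumors in red and untreated tumors in blue, points for samples and bars for group means. Rptor minus Rictor is lower and Mtor minus Mlst8 and Mtor minus Deptor are higher under the combination than in control, with no overlap. Other gene pairs of the panel were not examined.

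Between the 2 kinds of tumor, Rragc was the one gene of the 8 to pass, in the combination arm. It was higher by 1.15 in treated than in untreated tumors of that arm (SE 0.29, limma adjusted p = 0.0332), where 8.33% of the panel was higher. The call ended with housekeeping centring (0.96, adjusted p = 0.0502), with panel-median centring (0.76, 0.0543) and with any of 9 single samples left out: treated-tumor combination replicate 2 (0.87, 0.174) or 3, any untreated-tumor combination replicate, either treated-tumor control or either untreated-tumor anti-Semaphorin4D sample (adjusted p from 0.0511 to 0.0934). In the other arms no gene of the 8 and 0% of the panel passed (limma; 100, 14 and 50 panel genes and 1, 0 and 0 of the 8 at an unadjusted p under 0.05 in the DC1, anti-Semaphorin4D and control arms), with Rragc at 0.99, 0.45 and 0.55. The change of each arm against control did not differ between the kinds of tumor for any of the 8 at the adjusted threshold, nor for any panel gene (81, 10 and 9 panel genes and 0 of the 8 at an unadjusted p under 0.05 for the combination, DC1 and anti-Semaphorin4D). Whether a treated and an untreated tumor shared a mouse is not known.

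Genes around the complexes were read from lists of pathway members. Of 3 other subunits and chaperones measured, Telo2, which stabilises newly made mTOR and related kinases, rose 2.17-fold in treated and 2.94-fold in untreated tumors of the combination (limma adjusted p = 0.0137 and 0.0092), with 7.26 ± 0.25 (SD, n = 3) against 6.14 ± 0.01 (n = 2) in treated control. Of the 2 untreated-tumor controls, 1 was above the negative-probe limit for it. The complex 2 subunits Mapkap1 (-0.23 and -0.11) and Prr5 (-0.19 and 0.16) did not pass. Of 13 genes of PI3K, AKT and the insulin receptor, 7 rose in treated and 5 in untreated tumors and 0 fell (53.8% and 38.5% higher, where 35.4% and 15.8% of the panel were), with medians of 0.82 and 0.72 where the panel had 0.54 and 0.45. The kinase Akt2, which complex 2 phosphorylates, rose 2.07-fold and 1.92-fold (adjusted p = 0.0047 and 0.0213) and the regulatory subunit Pik3r1 1.85-fold and 1.64-fold (0.0045 and 0.0292). Pik3cd, the PI3K catalytic subunit of leukocytes, rose at least 3.29-fold in treated tumors (adjusted p = 0.00431), with both controls below the limit, and was below it in all untreated tumors of both groups. Pik3cb, another catalytic subunit, rose 2.28-fold in treated and 2.24-fold in untreated tumors (0.00761 and 0.0232).

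AMPK restrains complex 1 when energy is short. Of the TSC, RHEB and AMPK list, the 8 genes measured encode AMPK subunits or the kinase complex that activates AMPK, and no TSC or RHEB gene was measured. Of the 8, 2 rose in treated and 1 in untreated tumors (25% and 12.5%, where 35.4% and 15.8% of the panel were higher). These were Cab39 (2.33-fold, limma adjusted p = 0.0166) and Stk11 (1.43-fold, 0.0336, turning to -0.19 with panel-median centring), parts of the kinase complex that activates AMPK, in treated tumors, and the AMPK subunit Prkab2 (at least 1.20-fold, 0.0498) in untreated tumors. The Prkab2 call ended when any 1 of 13 of the 18 samples was left out. Of 6 genes of RAG regulation, 2 rose in treated and 1 in untreated tumors, close to the 35.4% and 15.8% of the panel. The folliculin partner Fnip1 rose 2.22-fold in treated and 1.83-fold in untreated tumors (0.0045 and 0.0324). Fnip2 rose 1.54-fold in treated tumors (0.047) and turned to -0.09 with panel-median centring. The Fnip2 call ended when any 1 of 13 of the 18 samples was left out. The second S6 kinase gene, Rps6kb2, rose 1.67-fold and 1.97-fold (0.0389 and 0.0282), and the related kinase Rps6ka1 rose in treated tumors (2.35-fold, 0.0373, above the limit in 3 of 3 combination and 1 of 2 control samples). The Rps6kb2 call in treated tumors ended with panel-median centring (0.03, adjusted p = 0.933), with housekeeping centring (0.169), in the fit of the 2 groups alone (0.128) and without either treated-tumor control (0.175 and 0.113).

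Of 18 measured genes listed as outputs of complex 1, 4 passed as higher in treated and 2 in untreated tumors and 0 as lower (22.2% and 11.1%, below the panel's 35.4% and 15.8%). Their medians were 0.60 and 0.55 where the panel had 0.54 and 0.45. The stress-response factor Atf4 rose 2.65-fold and 3.27-fold (limma adjusted p = 0.0275 and 0.0282) and the lipid synthesis factor Srebf1 2.19-fold and 2.68-fold (0.0251 and 0.0235). Slc3a2, a chain of amino acid transporters, rose 2.01-fold in treated tumors (0.01). Slc7a11, a cystine transporter, passed there (0.0138) with every sample below the negative-probe limit, so no fold is given. Myc, Phgdh and Psat1 changed by -0.07, 0.04 and -0.07 in treated tumors and Srebf2 by -0.61, none of which passed. Averaged over both kinds of tumor 10 of the 18 were higher and 1, Srebf2, lower (-0.58, adjusted p = 0.0329), where 44.1% of the panel was higher and 4.04% lower. With panel-median centring these treated-tumor calls ended: Telo2 (0.41, adjusted p = 0.243), Akt2 (0.34, 0.129), Pik3r1 (0.18, 0.579), Cab39 (0.51, 0.2), Fnip1 (0.44, 0.0709), Rps6ka1 (0.53, 0.298), Atf4 (0.70, 0.172), Srebf1 (0.42, 0.337) and Slc3a2 (0.30, 0.284). The treated-tumor calls of Atf4 (0.136 and 0.0916), Srebf1 (0.0847 and 0.134), Telo2 (0.0777 and 0.0746) and Cab39 (0.0838 and 0.0847) also ended without treated-tumor control replicate 1 or 2. Without untreated-tumor control replicate 2, none of the untreated-tumor calls named here held (adjusted p from 0.148 for Telo2 to 0.467 for Prkab2).

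**Figure D5:**
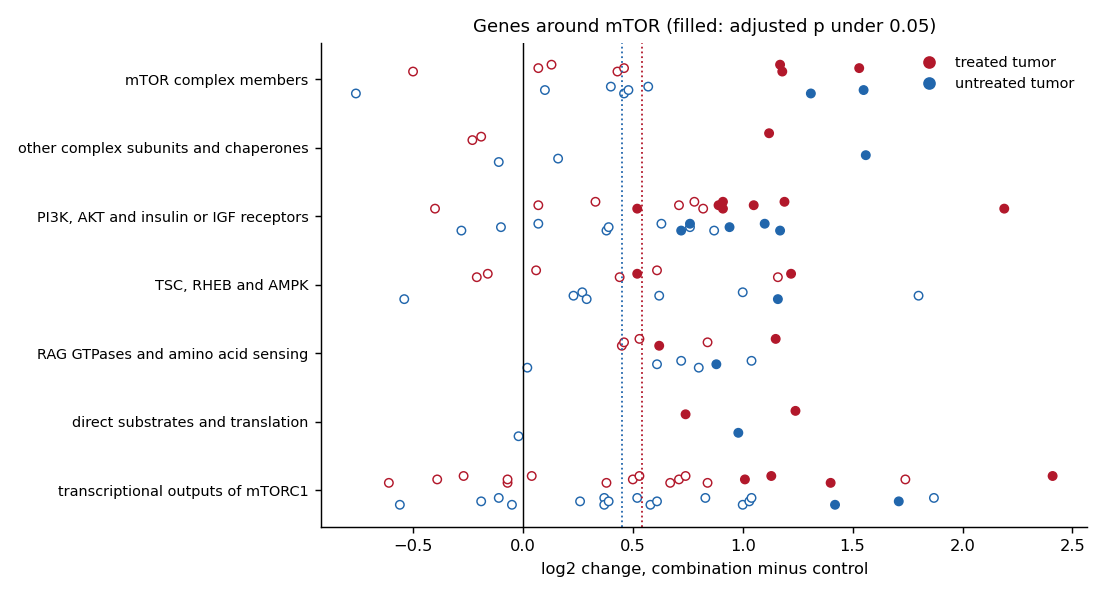
Log2 change of the combination minus control (x axis) of every measured gene of each pathway list (y axis), treated tumors in red above untreated tumors in blue. Filled points have an adjusted p under 0.05 and dotted lines are the panel medians. No filled point lies below 0 in any list.

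Immune and stromal transcripts also differed under the combination, more often in treated than in untreated tumors. Of 12 T cell markers, 10 rose in treated tumors of the combination and 2 in untreated tumors (83.3% and 16.7%, where 35.4% and 15.8% of the panel rose). Their summed counts were between 1120 and 3950 in treated tumors of the combination against 363 to 365 in control, and between 443 and 943 against 366 to 447 in untreated tumors. The defining marker Cd8a stayed below the negative-probe limit in all 18 samples, while Cd3e and Cd4 exceeded it in at least 1 combination sample of each kind of tumor and in no control. Of 6 macrophage and monocyte markers, 4 rose in treated tumors (sums 8340 to 13100 against 5910 to 7510) and 0 in untreated tumors (6940 to 8220 against 6380 to 6720). Of 8 natural killer and cytotoxic markers, 6 rose in treated tumors (1120 to 5890 against 412 to 415), and in untreated tumors 1 rose and 1 fell (718 to 1470 against 464 to 625). Both measured fibroblast genes rose in treated tumors (731 to 2290 against 99 to 103). Under DC1 alone, treated-tumor sums were 456 to 723 (T cell), 6090 to 6220 (macrophage), 441 to 1430 (natural killer) and 174 to 208 (fibroblast). Untreated-tumor sums under DC1 were 342 to 385, 4690 to 5540, 388 to 940 and 88 to 125 (fibroblast control 68 to 132) in that order. Of the dendritic cell markers only Flt3 was measured, above its limit in no sample outside the treated-tumor combination.

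Across 18 samples the T cell sum (log2) and Mtor had r = 0.81, with 0.55 over the 12 samples outside the combination, and Akt1s1 had 0.71 and 0.38. With the natural killer and cytotoxic sum Mtor had 0.74 and 0.15 and Akt1s1 0.67 and 0.13, and with the macrophage and monocyte sum Mtor had 0.52 and -0.60 and Akt1s1 0.44 and -0.64. These samples share the group differences. The changes of Mtor in treated and untreated tumors, 1.53 and 1.55, stood beside T cell sums that differed between the kinds as above. The part of these cells in the results was not tested.

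The likeness between genes is given as a description over 18 samples that share groups and library scaling. Among the 8, Mtor and Akt1s1 followed each other most closely (r = 0.97, 0.90 after panel-median centring, 0.92 over the 12 samples outside the combination). Rptor ran against both, with r = -0.79 to Mtor (-0.84 centred, -0.64 outside the combination) and -0.83 to Akt1s1. Rictor and Rps6kb1 had r = 0.81 (0.80 centred). Of 437 other genes above the limit in every sample, Mtor was most like Nfkb2 (0.99), Rela (0.98), Kmt2a (0.98), Akt2 (0.97) and Stam2 (0.97), and Akt1s1 was most like Rela (0.98), Arf5 (0.98) and Abl1 (0.97). Nfkb2 and Rela encode subunits of the transcription factor NF-kB, and Kmt2a a histone methyltransferase.

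Rptor was most like Clock (0.89), Pik3r2 (0.82) and Srebf2 (0.82), and these reached 0.96, 0.95 and 0.94 after centring. Clock encodes a circadian transcription factor and Srebf2 the main activator of cholesterol synthesis. Rictor was most like Kat6a (0.93), Gsk3b (0.93) and Kansl1 (0.90), Deptor like Ncoa2 (0.82), Tecr (0.81) and Ak3 (0.78), and Rragc like the lysosomal protease gene Ctsd, Prdx5 and Ap2s1 (0.96 each). After centring, Rictor and Kat6a were at 0.82 and Rictor and Gsk3b at 0.93. Rps6kb1 was most like Cdca8 (0.92), Gart (0.89) and Tyms (0.88), genes of division and nucleotide synthesis. These were at 0.76, 0.82 and 0.67 after centring, where Foxm1 was the closest (0.94). For Mlst8 the closest, Pik3cb (0.89), Atf7 (0.88) and Itch (0.86), were at 0.11, 0.29 and -0.04 after centring.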

How the data were processed

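NanoString nCounter RNA measurements of 18 tumors were used as deposited log2 values of the authors, log2(count + 1). The submitters' processing notes name limma, with no version or role. From the values, 12 columns were found to be counts multiplied by 1 factor per sample (0.736 to 2.58) and 6 held whole numbers whose scaling is not settled, while negative probes were unscaled. The limit of a sample was the mean plus 2 SD of its 8 negative probes as counts, times its factor (log2 4.95 to 5.85). Groups came from the titles. No scaling was added before fitting 1 mean per group over 18 samples with lmFit and eBayes of limma 3.58.1 under R 4.3.3 (residual degrees of freedom 10, prior 3.02). The fit gave 20 planned comparisons, with Benjamini-Hochberg adjustment over 768 genes within each and a threshold of 0.05, and 1 contrast and 2 alternatives were added after values were seen. Fold changes come from log2(count + 1), which shrinks those of genes with few counts. "At least" folds set the brighter group against the limit. Within-sample differences were tested by exact permutation over 100 arrangements within kinds of tumor. Symbols matched RefSeq (GRCm38.p6) for 767 of 768 genes. Of 20 housekeeping genes, 19 were in the table.

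The genes and lists were chosen with earlier results of these data known. All 8 mTOR complex genes are named. From each pathway list, up to 4 genes with the smallest p past the threshold in each kind of tumor are named (the 1 with the smallest p where none passed), and for each of the 8 the 3 genes with the highest r (5 for Mtor). Mapkap1, Prr5, Myc, Phgdh, Psat1 and Srebf2 were added from those lists after their values were seen. Some genes that this rule names are not reported here. The limma procedure was tested on simulated data. Same-numbered samples were checked for pairing, and 18 of 56 pairs across all groups had correlated deviations over 0.1 (-0.52 to 0.52), as had 5 of the 9 pairs of a treated and an untreated tumor of 1 arm. In groups of 2 samples the deviations mirror each other, so both numbers of an arm gave the same correlation. It was 0.52 for DC1, 0.17 for anti-Semaphorin4D and -0.07 for control, and the 3 combination pairs had 0.36, -0.06 and 0.02. The check therefore cannot settle whether tumors of 1 number shared a mouse. The numbers were not taken to pair samples. Averages over both kinds of tumor and the permutations take the tumors as independent, which is an assumption. Alternatives were scaling, a filter, a pseudocount of 10, negative-probe subtraction, blocks, samples in the fit, the variance model and leaving out each sample. Figures used Python 3.11.15 and matplotlib 3.10.9.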

Additional observations from a re-analysis of the deposited data

How the results depend on the processing

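Counting error and 2 control samples per kind of tumor limit what can be seen. The causes of the changes below were not tested. The number of the 8 genes called in treated tumors, combination against control, was 3 and ranged from 2 to 4 with 1 sample left out, and that in untreated tumors was 2 (0 to 3), 4 with negative probes subtracted and 0 with only the 2 groups fitted. Against anti-Semaphorin4D it was 3 (2 to 5, the 5 leaving out combination replicate 1) in treated and 2 (0 to 3) in untreated tumors, 0 there with only the 2 groups fitted. Against DC1 it was 0 (0 to 1, the 1 leaving out combination replicate 1) in treated and 0 (0 to 0) in untreated tumors. For DC1 and anti-Semaphorin4D against control, the interactions, the differences between kinds of tumor of an arm's change, and treated against untreated tumors under anti-Semaphorin4D and in control it was 0 (0 to 0). Treated against untreated tumors gave 1 (0 to 1) under the combination and 0 (0 to 2, the 2 leaving out untreated-tumor replicate 2) under DC1, and the combination's became 0 with housekeeping centring, with negative probes subtracted and with only those groups fitted. Averaged over both kinds it was 6 (5 to 7), and for arms with against without DC1 it was 5 (5 to 7). Panel genes called in treated tumors numbered 298 (132 to 334; it was 132 and 137 leaving out control replicates 1 and 2, and 195 leaving out combination replicate 2) and 155 with only the 2 groups fitted. In untreated tumors they numbered 129 (1 to 171; it was 1 leaving out control replicate 2, and 21 and 26 leaving out combination replicates 2 and 3), 45 with panel-median centring, 56 with housekeeping centring, 71 with the replicate block, 198 when column kind was blocked and 4 with only the 2 groups fitted.

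In the fit of scaled columns alone, 0 of the 8 genes and 0 panel genes were called in treated tumors, 1 and 55 in untreated tumors, and 2 of the 8 averaged over both kinds. With the tumors of an arm and number averaged first, 3 of the 8 were called for the combination against control and 3 for arms with against without DC1. These alternatives were chosen after seeing the data.

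The replicate block changed no count of calls among the 8 genes in limma, and treating an arm and number as a shared mouse gave Rragc 1.15 between kinds of tumor (adjusted p = 0.0311). Pairing by replicate number gave within-sample differences of -1.01 for Rptor minus Rictor, 1.05 for Mtor minus Mlst8 and 1.30 for Mtor minus Deptor, each at an adjusted exact permutation p = 0.125, the smallest that pairing allows. With 1 sample left out these ranged from -1.22 to -0.96, from 1.00 to 1.17 and from 1.31 to 1.68, with adjusted p from 0.025 to 0.05.

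Directions turned mostly with scaling. With panel-median centring, changes against control in treated, untreated and averaged tumors became -0.64, -0.37 and -0.51 for Deptor, -0.58, -0.08 and -0.33 for Rps6kb1 and -0.25, -0.01 and -0.13 for Mlst8. Rictor became -0.28 in treated tumors, -0.14 averaged and -0.11 against anti-Semaphorin4D, Stk11 -0.19, Fnip2 -0.09, and Rps6kb1 in the arms with DC1 -0.12. With housekeeping centring Deptor became -0.18, -0.15 and -0.16 and Rps6kb1 in treated tumors -0.12, and with negative probes subtracted Deptor became -0.000558 in treated tumors. With 1 sample left out, Deptor ranged from -0.22 to 0.26 in treated, from -0.15 to 0.35 in untreated and from -0.06 to 0.21 in averaged tumors.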
